A study of Mus musculus with 9 samples.

Results

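Stab1, Stab2, Lyve1, Cd44, Has2, Hyal1 and Hyal2, the stabilins and the genes that make, bind and degrade hyaluronan, were examined in cultured mouse lung endothelial cells with and without JNK. These 7 genes, of 37104 loci listed, were brought together because Stab2 is strongly increased in the JNK-deficient cells: the set was chosen by the FPKM of Stab2 in these same libraries, and the other 6 were added for their function. The values of Stab2 in JNK-deficient cells are therefore a description and were not tested.

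RNA was sequenced from primary mouse lung endothelial cells (MLEC) in 9 libraries, 3 from each of 3 groups. ECtrl cells carried the genotype Cdh5-Cre+ Jnk1+/+ Jnk2+/+ Jnk3-/-, EfCtrl cells Cdh5-Cre- Jnk1LoxP/LoxP Jnk2LoxP/LoxP Jnk3-/-, and E3KO cells Cdh5-Cre+ Jnk1LoxP/LoxP Jnk2LoxP/LoxP Jnk3-/-. All 3 groups, the controls included, thus lacked Jnk3 (Mapk10). The mice were adult C57BL/6J animals of 10 to 12 weeks. Cre was driven by the promoter of Cdh5, the gene of the endothelial adhesion molecule VE-cadherin, and Jnk1 (Mapk8) and Jnk2 (Mapk9) were its targets. Each library came from a separate preparation of cells pooled from the lungs of several mice, selected with an antibody to ICAM2 and grown in culture, so the values describe cultured cells and not lung tissue.

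Hyaluronan is a long unbranched sugar chain of the extracellular matrix. Hyaluronan synthases extrude it through the plasma membrane, receptors such as CD44 and LYVE1 bind it at the cell surface, and hyaluronidases and lysosomal exoglycosidases take it apart. Stabilin-2 is the main receptor by which sinusoidal endothelium of liver, spleen and lymph node clears circulating hyaluronan, while stabilin-1, its relative, is a scavenger receptor of sinusoidal and lymphatic endothelium and of some macrophages. LYVE1 is best known as a marker of lymphatic endothelium and is also found on sinusoidal endothelium and on some macrophages.

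The results turn on the stabilin pair, so the sequence just before the start of each gene is shown, upstream of all its annotated transcript starts. The sequences are from RefSeq on GRCm38.p6 (mm10), 5′ to 3′ on the minus strand, and run from chr14:31168642-31168891 for Stab1 and chr10:87008026-87008192 for Stab2. Capitals mark the letters AGGAA on either strand, the core of many ETS factor motifs.

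Stab1: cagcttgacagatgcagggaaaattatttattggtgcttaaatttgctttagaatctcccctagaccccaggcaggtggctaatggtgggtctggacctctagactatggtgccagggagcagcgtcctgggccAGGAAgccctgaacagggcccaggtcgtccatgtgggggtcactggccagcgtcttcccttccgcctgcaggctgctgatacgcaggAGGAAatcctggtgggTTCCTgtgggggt

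Stab2: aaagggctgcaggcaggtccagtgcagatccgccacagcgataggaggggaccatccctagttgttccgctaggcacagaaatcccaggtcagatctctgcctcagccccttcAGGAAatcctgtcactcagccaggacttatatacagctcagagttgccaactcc

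Windows of 300 bases, from 250 bases before to 50 bases after the RefSeq start, were held for 5 of the 7 genes, with none for Lyve1 and Has2. The AP-1 motif, TGANTCA, which is bound by JUN and FOS proteins, was searched on both strands and matched 0 of these 5 windows, against 7.808% of 32851 windows of this length over all genes. The CRE motif, TGACGTCA, also matched 0 of the 5, against 1.79% of all windows. AGGAA occurred in 4 of the 5 windows, against 66.71% of all windows. The stretches printed above differ in length, with 250 bases for Stab1 and 167 for Stab2, and hold 3 copies of AGGAA for Stab1 and 1 for Stab2. In the windows of 300 bases Stab1 and Stab2 each held 3 copies. Since these 5 windows held neither an AP-1 nor a CRE match, overlap of AGGAA with them could not be examined.

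Expression was deposited as FPKM, a fragment count divided by transcript length and by the size of the library, which allows levels of different genes to be set side by side. The summed FPKM of single-locus symbols was 656089 to 908401 in 8 libraries and 9841810 in the library labelled E3KO replicate 1, where the 10 most abundant symbols held 96.4% of the sum. Without the 5 symbols with a mean of at least 5000 FPKM over the 9 libraries, the sums of all 9 libraries were 388537 to 433172. Mapk8 was 14.05 to 17.9 FPKM in the controls, 8.77 and 4.65 in E3KO replicates 2 and 3, and 20.7 in the library labelled E3KO replicate 1, so its total Mapk8 level goes against that label. Mapk9 ranged from 20.7 to 35.1 FPKM in the 3 E3KO libraries, below the 42.7 to 50.9 FPKM of the controls. Mapk10 did not exceed 0.270 FPKM in any library. A value per gene does not show which exons were deleted, and results are given below with and without the library labelled E3KO replicate 1.

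Stab2, the hyaluronan clearance receptor, lies on chromosome 10 at 86841198 to 87008025, minus strand (ENSMUSG00000035459), in a deposited row that spans 86839094 to 87028015. Stab2 was low in both controls and high in every E3KO library. It measured 5.30, 6.48 and 13.3 FPKM in ECtrl replicates 1, 2 and 3, and 6.19, 6.54 and 6.52 FPKM in EfCtrl. In E3KO it measured 138.7, 106.2 and 126.0 FPKM. The groups did not overlap, and the lowest E3KO library was 7.99 times the highest control library, ECtrl replicate 3. The mean was 7.39 ± 2.93 FPKM in the controls (SD, n = 6) and 124 ± 16.4 FPKM in E3KO (SD, n = 3), a ratio of 16.7.

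**Figure D1:**
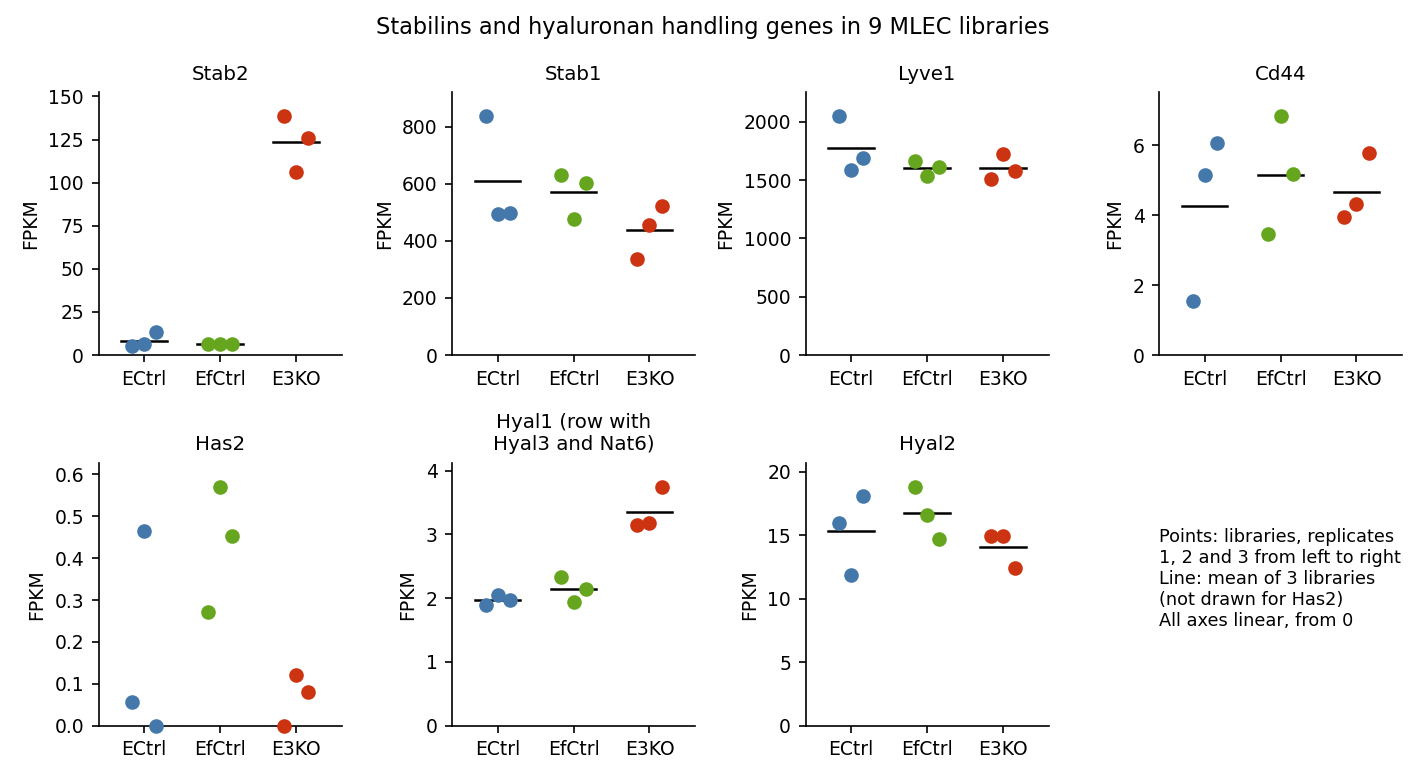
FPKM of the 7 genes (vertical axes, linear, each from 0) in the ECtrl, EfCtrl and E3KO libraries (points, replicates 1 to 3 from left to right) with the mean of 3 libraries (line, not drawn for Has2). Stab2 was 106.2 to 138.7 FPKM in E3KO and 5.30 to 13.3 in the controls, the Hyal1 row was also apart, and the other 5 genes overlapped.

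On the scale of log2(FPKM + 1), which understates changes of low genes, Stab2 differed by 3.94 between E3KO and the mean of the controls (SE 0.23, 95% interval 3.42 to 4.47). The difference was 3.82 against ECtrl (SE 0.27) and 4.06 against EfCtrl (SE 0.27). Among the 10983 genes fitted, Stab2 ranked 2 from the highest difference. Without the library labelled E3KO replicate 1 the difference was 3.86, and omission of any other single library gave values from 3.82 to 4.12. Leaving out ECtrl replicate 3, the highest control, gave 4.12. These values chose the gene and are given with no test.

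The difference between the controls was not itself used to choose Stab2 and was tested. The control values did enter the choice of the genes, so this test is not independent of that choice. Stab2 differed by −0.24 between EfCtrl and ECtrl (SE 0.27, 95% interval −0.85 to 0.37, limma adjusted p = 1.00). Its sign turned when ECtrl replicate 3 was omitted (0.11). No difference between Cre-positive cells with intact Jnk1 and Jnk2 and Cre-negative cells with LoxP alleles was detected for Stab2 at this spread.

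The span of the Stab2 row, which is wider than the gene, holds 5 other annotated genes, all on the plus strand. These genes, Gm16268, Gm16280, Gm16270, Gm16271 and Gm16269, are antisense RNAs and pseudogenes. Gm16271 reached 3.87 FPKM in 1 library, and Gm16268, the one with an exon over a Stab2 exon, did not exceed 0.0932 FPKM. Whether the libraries kept strand is not given in the sources used here, so fragments of overlapping exons cannot be assigned to a strand.

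Stab1, the scavenger receptor related to Stab2, lies on chromosome 14 at 31139013 to 31168641, minus strand (ENSMUSG00000042286). Its deposited row spans 31134853 to 31168641 and overlaps Nt5dc2, a plus-strand protein-coding gene with exons over Stab1 exons. Nt5dc2 was listed at 1.21 to 3.98 FPKM. Stab1 was abundant in all groups and did not pass the test. It measured 838, 494 and 499 FPKM in ECtrl, 632, 476 and 604 FPKM in EfCtrl, and 337, 457 and 522 FPKM in E3KO. The library labelled E3KO replicate 1 and E3KO replicate 2 lay below all controls, and E3KO replicate 3 lay among them. The mean was 591 ± 137 FPKM in the controls (SD, n = 6) and 439 ± 93.8 FPKM in E3KO (SD, n = 3).

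The log2 difference of Stab1 was −0.42 (SE 0.21, 95% interval −0.90 to 0.05, limma adjusted p = 0.254). It was −0.45 against ECtrl (adjusted p = 0.326) and −0.39 against EfCtrl (adjusted p = 0.421). Without the library labelled E3KO replicate 1 it was −0.25 (adjusted p = 0.546).

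Stab2 made up a small share of the summed stabilin FPKM in control cells and a much larger one in E3KO cells. The share was 0.628%, 1.29% and 2.59% in ECtrl, 0.969%, 1.35% and 1.07% in EfCtrl, and 29.2%, 18.8% and 19.5% in E3KO. Stab1 remained the more abundant stabilin in all 9 libraries, at 37.6 to 158 times Stab2 in the controls and 2.43 to 4.31 times Stab2 in E3KO. The share uses the Stab2 values by which the genes were chosen and carries no test.

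**Figure D2:**
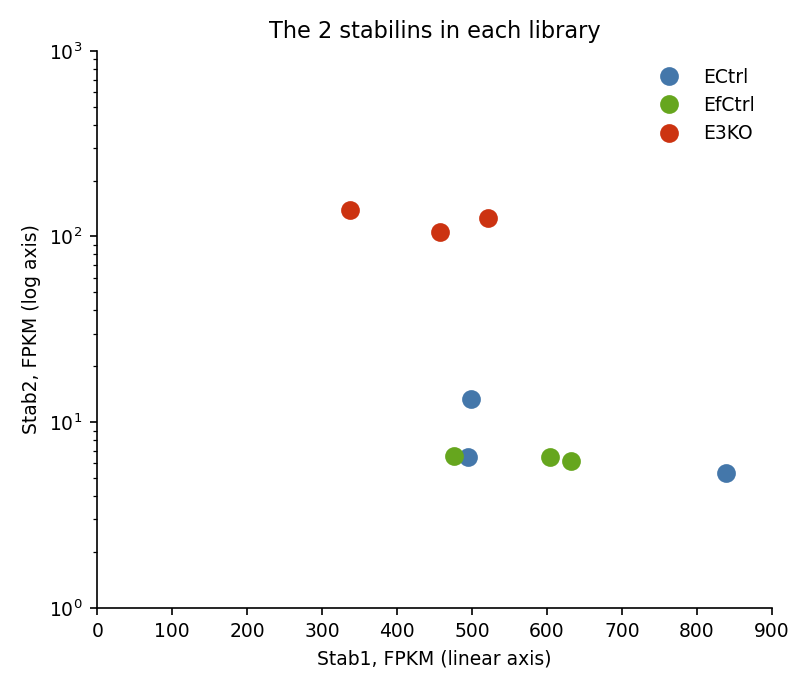
Stab2 FPKM (vertical, log axis) against Stab1 FPKM (horizontal, linear axis), 1 point per library, coloured by group. The 3 E3KO libraries lie at 106.2 to 138.7 FPKM of Stab2, and the Stab1 values of E3KO (337 to 522) overlap those of the controls (476 to 838).

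Lyve1, the hyaluronan receptor of lymphatic endothelium (chromosome 7, 110850607 to 110862953, minus strand, ENSMUSG00000030787), was the most abundant of the 7 genes and did not pass the test. It measured 2050, 1585 and 1689 FPKM in ECtrl, 1661, 1534 and 1614 FPKM in EfCtrl, and 1513, 1728 and 1576 FPKM in E3KO. The groups overlapped, and 1 E3KO library, the one labelled replicate 1, lay just below the lowest control. The log2 difference was −0.07 (SE 0.11, 95% interval −0.32 to 0.18, limma adjusted p = 0.737), and −0.03 without the library labelled E3KO replicate 1. With each library centred on its own median the difference was 0.01, so the sign is not determined.

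Cd44, the widely expressed hyaluronan receptor (chromosome 2, 102811141 to 102901665, minus strand, ENSMUSG00000005087), was low and varied most in ECtrl. It measured 1.54, 5.16 and 6.07 FPKM in ECtrl, 3.47, 6.83 and 5.17 FPKM in EfCtrl, and 3.95, 4.30 and 5.76 FPKM in E3KO. All E3KO libraries lay within the range of the controls. The log2 difference was 0.07 (SE 0.32, 95% interval −0.66 to 0.79, limma adjusted p = 0.919). Its sign depended on single libraries, with values from −0.16 to 0.21 when each was omitted in turn.

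Has2, a hyaluronan synthase, lies on chromosome 15 at 56665627 to 56694539, minus strand (ENSMUSG00000022367), in a deposited row that spans 56665627 to 56778399. Has2 was near the limit of detection in all groups. It was listed at 0.0570, 0.465 and 0 FPKM in ECtrl, 0.272, 0.571 and 0.453 FPKM in EfCtrl, and 0, 0.120 and 0.0810 FPKM in E3KO. The ECtrl libraries spanned the E3KO values, and the 3 EfCtrl libraries lay above E3KO. Has2 fell under the minimum of 1 FPKM in the median library and was not tested, and Has2os, a plus-strand RNA, overlaps its exons. The number of fragments behind each value is unknown, and a value of 0 is not evidence of absence.

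Hyal1, which encodes a lysosomal hyaluronidase, is listed in a single row with Hyal3 and Nat6 (the row spans chromosome 9, 107575820 to 107587425, plus strand), and the values cannot be divided among these genes. The row was higher in E3KO. It measured 1.89, 2.052 and 1.97 FPKM in ECtrl, 2.33, 1.95 and 2.14 FPKM in EfCtrl, and 3.14, 3.17 and 3.75 FPKM in E3KO. All 3 E3KO libraries lay above all 6 controls, and the mean was 2.06 ± 0.162 FPKM in the controls (SD, n = 6) and 3.36 ± 0.343 FPKM in E3KO (SD, n = 3).

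The log2 difference of this row was 0.51 (SE 0.10, 95% interval 0.29 to 0.73, limma adjusted p = 0.0228). It was 0.55 against ECtrl (adjusted p = 0.0401) and 0.47 against EfCtrl, where it did not pass (adjusted p = 0.0810). The call held without the library labelled E3KO replicate 1 (0.54, adjusted p = 0.0271). It was lost when EfCtrl replicate 1, 2 or 3 was left out (adjusted p = 0.0563, 0.0599 and 0.0670), when E3KO replicate 2 or 3 was left out (0.0505 and 0.0957), and with a mean-variance trend (0.0593). Rows that join several symbols were scaled differently from others. The mean of the ECtrl libraries was 0.458 of the authors' group value in the median of 272 such rows, and 0.929 in the median of 9920 rows with 1 symbol, so the level of the Hyal1 row is not comparable with those of the other genes.

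Hyal2, a hyaluronidase held at the cell surface (chromosome 9, 107569117 to 107572776, plus strand, ENSMUSG00000010047), lies beside Hyal1 and did not pass the test. It measured 16.02, 11.9 and 18.1 FPKM in ECtrl, 18.9, 16.6 and 14.7 FPKM in EfCtrl, and 15.0, 14.9 and 12.4 FPKM in E3KO. All E3KO libraries lay within the control range. The log2 difference was −0.16 (SE 0.15, 95% interval −0.50 to 0.17, limma adjusted p = 0.523), and −0.21 without the library labelled E3KO replicate 1.

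Against the background of all genes, 585 of 10983 passed in E3KO against the mean of the controls (5.33%), of which 180 were higher (1.64%) and 405 lower (3.69%). With each library centred on its median, 536 passed, 239 higher and 297 lower, so the share of higher calls moved from 30.8% to 44.6%. The median difference of all genes was −0.09 and moved to −0.01 with centring. Of the 7 genes, 6 passed the filter on low values, and of the 5 that could be tested 1 was called, the Hyal1 row. Separation of the 3 E3KO libraries from all 6 controls held for Stab2 and the Hyal1 row, and 16.6% of all genes fitted were separated in this way (4.96% above and 11.6% below). Since the genes were chosen with the results of this contrast known, nothing is read from these counts.

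**Figure D3:**
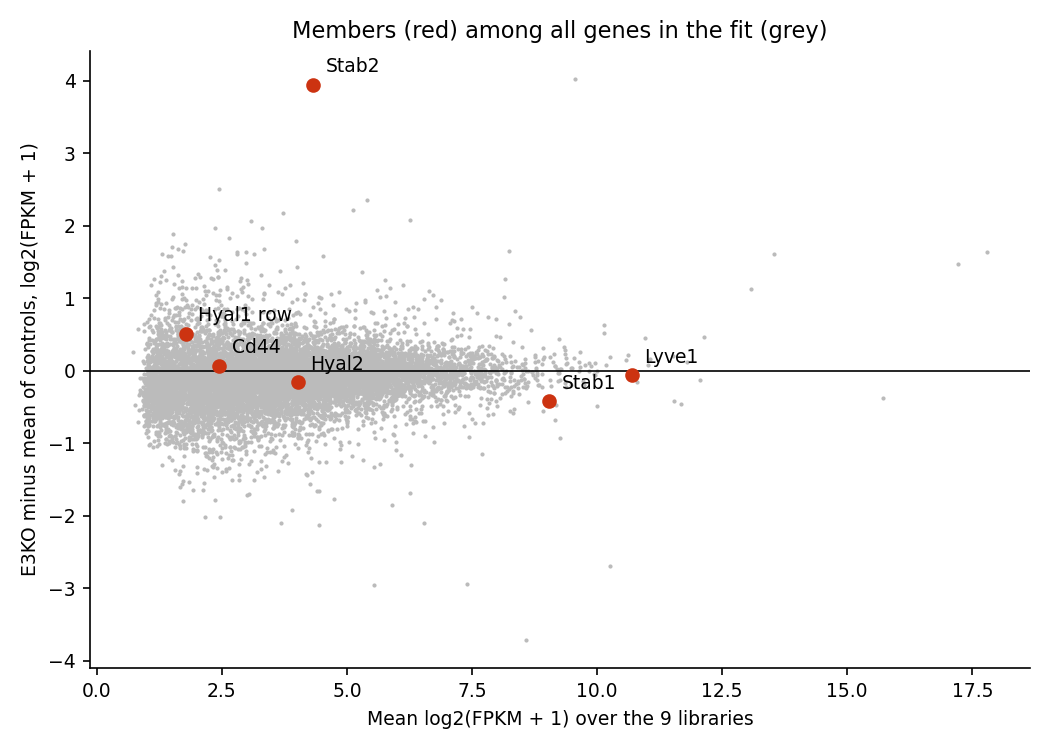
Difference between E3KO and the mean of the controls (vertical, log2(FPKM + 1) scale) against the mean level over 9 libraries (horizontal, same scale) for all 10983 genes fitted (grey), with the 6 genes in the fit in red. Stab2 (3.94) lies far above most genes, the Hyal1 row (0.51) at the low end of expression, and Stab1, Lyve1, Cd44 and Hyal2 lie between −0.42 and 0.07.

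Between EfCtrl and ECtrl 0 of the 6 fitted genes passed the limma test, against 0 of all 10983 genes (0%), with 195 at an unadjusted p under 0.05. The log2 differences were −0.06 for Stab1, −0.24 for Stab2, −0.14 for Lyve1, 0.32 for Cd44, 0.08 for the Hyal1 row and 0.13 for Hyal2, each with an adjusted p of 1.00. For 4 of them, Stab1, Stab2, Cd44 and Hyal2, the sign turned when a single library was omitted. Against ECtrl alone 290 genes passed for E3KO (2.64%), and against EfCtrl alone 145 passed (1.32%).

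**Figure D4:**
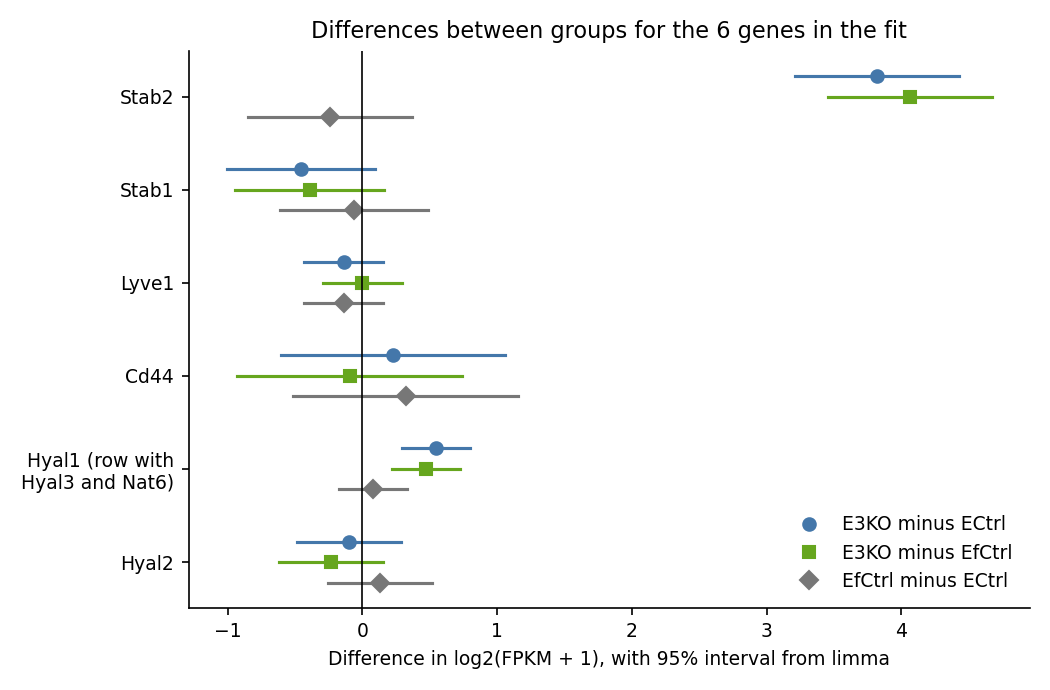
Differences in log2(FPKM + 1) with 95% intervals (horizontal) for the 6 genes in the fit, for E3KO minus ECtrl, E3KO minus EfCtrl and EfCtrl minus ECtrl. The 2 intervals of Stab2 against the controls lie between 3.21 and 4.67, those of the Hyal1 row against the controls lie above 0, and the intervals of the other genes and of EfCtrl minus ECtrl include 0.

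In the 6 control libraries the mean levels fell in the order Lyve1, Stab1, Hyal2, Stab2, Cd44 and Has2. Within libraries, on the scale of log2(FPKM + 0.1), Lyve1 exceeded Stab1 by 1.54 ± 0.19 and Stab1 exceeded Hyal2 by 5.18 ± 0.36 (SD, n = 6). Both held in 6 of 6 libraries, at the smallest p that an exact two-sided sign-flip permutation test of 6 libraries allows (0.0312, unadjusted). Adjustment over 6 neighbouring pairs would count pairs with Stab2 and the Hyal1 row, so no adjusted p is given. The order was taken from the means of these same libraries, so the p-values do not test it independently. Hyal2 exceeded Stab2 by 1.16 ± 0.45 in 6 of 6 libraries and Stab2 exceeded Cd44 by 0.71 ± 0.64 in 5 of 6, which are given with no test since the control values of Stab2 entered the choice of the genes. The Hyal1 row has no place in this order. It lay below Cd44 by its library values, with 2.06 against 4.71 FPKM, and above it by the authors' group values, with 5.32 against 4.33 FPKM in ECtrl and 5.47 against 5.27 FPKM in EfCtrl. In E3KO the mean of Stab2, 124 FPKM, exceeded that of Hyal2, 14.1 FPKM, and was below that of Stab1.

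The genes whose pattern over the 9 libraries was most like that of Stab2, by Pearson's r of log2(FPKM + 1), were Gsto1 (0.987), Smoc1 (0.985), Tmem176a (0.981), the row of Mir1900 (0.980) and Pole (0.979). All 5 were above every control in all E3KO libraries. Gsto1, a glutathione transferase, ranged from 72.7 to 93.4 FPKM in controls and from 147 to 189 FPKM in E3KO. Smoc1, a secreted matrix protein, was 0.539 to 1.40 FPKM in the controls and 4.80 to 5.54 FPKM in E3KO. With 3 libraries high and 6 low, such an r describes mainly the difference between the groups that chose Stab2, and the 9 libraries share that grouping.

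For Lyve1, genes among the most alike were Anp32a (0.951), Chfr (0.926), Sri (0.924) and Ranbp1 (0.917). These follow the high value of ECtrl replicate 1, where Lyve1 measured 2050 FPKM, and Anp32a was 172 FPKM in that library and 102 to 134 FPKM in the other 8. These correlations are descriptions over 9 libraries and carry no p.

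Other genes of hyaluronan metabolism were taken from lists by role. For this and all lists below, the shares over all 10983 genes fitted were 1.64% called higher and 3.69% called lower. For synthesis of hyaluronan and its sugar precursors, 7 of 9 genes were in the fit, 0 were called higher and 0 lower, and the median difference was 0.20 beside −0.09 over all genes fitted. Ugp2, which makes UDP-glucose, was the most abundant of them, at 31.7 ± 2.96 FPKM in the controls (SD, n = 6) and 27.2 ± 5.70 FPKM in E3KO (SD, n = 3; adjusted p = 0.337 by limma). Has1 and Has3, the other 2 hyaluronan synthases, were too low to test, at no more than 0.159 and 0.257 FPKM in any library. No hyaluronan synthase thus reached 1 FPKM in any of the 9 libraries. The median over the synthesis list was 0.11 without the library labelled E3KO replicate 1, beside −0.06 over all genes.

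For breakdown, 4 of 10 genes were in the fit apart from the Hyal1 row, which also holds Hyal3. Of these 0 were called, with a median difference of −0.28, and −0.22 without the library labelled E3KO replicate 1. Hexa, a subunit of lysosomal hexosaminidase, was the most abundant at 262 ± 31.1 FPKM in the controls (SD, n = 6) and 235 ± 15.1 FPKM in E3KO (SD, n = 3; limma adjusted p = 0.508).

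For other hyaluronan binding genes, 7 of 21 were in the fit, 0 were called higher and 2 lower, with a median of −0.14. Without the library labelled E3KO replicate 1, 1 was called lower, with a median of −0.09. Hmmr, the hyaluronan-mediated motility receptor, which also acts at the mitotic spindle, measured 5.83 to 8.77 FPKM in the controls and 4.31, 3.50 and 4.33 FPKM in E3KO. It fell by 0.79 on the log2 scale (SE 0.14, limma adjusted p = 0.0190), and the call held without the library labelled E3KO replicate 1 (adjusted p = 0.0290). Itih5, an inter-alpha-trypsin inhibitor heavy chain of the family that binds hyaluronan, measured 5.03 to 8.56 FPKM in the controls and 3.43, 4.23 and 3.84 FPKM in E3KO. It fell by 0.64 (SE 0.13, limma adjusted p = 0.0311). Ptx3, a pentraxin of the hyaluronan matrix, was the most abundant at 57.6 ± 9.91 FPKM in the controls (SD, n = 6) and 62.9 ± 2.40 FPKM in E3KO (SD, n = 3; limma adjusted p = 0.550).

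Of scavenger receptors other than the stabilins, 10 of 19 were in the fit, 0 were called and the median difference was 0.14. Again 0 were called without the library labelled E3KO replicate 1, with a median of 0.32. Colec12, a collectin scavenger receptor and the most abundant of them, was 86.2 ± 9.06 FPKM in the controls (SD, n = 6) and 98.1 ± 17.6 FPKM in E3KO (SD, n = 3; limma adjusted p = 0.486). Cd163, the haemoglobin scavenger receptor of macrophages, was listed at 0 in all 9 libraries.

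**Figure D5:**
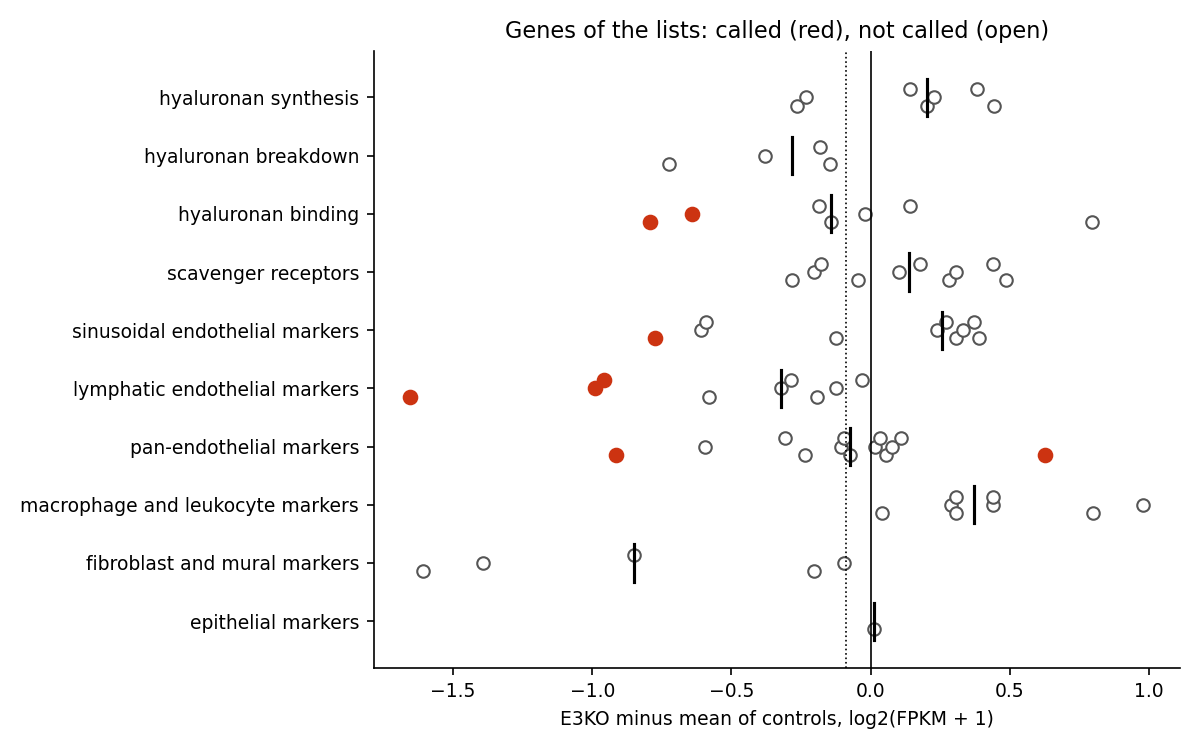
Difference between E3KO and the mean of the controls in log2(FPKM + 1) (horizontal) for the fitted genes of 10 lists (rows), called at an adjusted p under 0.05 (red) or not (open), with the median of each list (vertical bars) and of all genes (dotted line, −0.09). Called genes are 2 of hyaluronan binding, 1 sinusoidal, 3 lymphatic and 2 pan-endothelial, and Emcn is the only 1 of these 8 that is higher.

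Stab2, Stab1 and Lyve1 are shared by sinusoidal and lymphatic endothelium, so the markers of both were examined. Of 14 sinusoidal markers, 10 were in the fit, 0 were called higher and 1 lower, with a median of 0.26, which was 0.41 without the library labelled E3KO replicate 1. Bmp2, a growth factor of the TGF-beta family, fell by 0.77 (SE 0.14, limma adjusted p = 0.0212), from 3.26 ± 0.883 FPKM in the controls (SD, n = 6) to 1.47 ± 0.399 FPKM in E3KO (SD, n = 3). The most abundant was Flt4, the receptor of VEGF-C, at 164 ± 20.6 and 150 ± 18.5 FPKM (limma adjusted p = 0.616). The uncalled markers in the fit went both ways. The differences were 0.33 for Dnase1l3, 0.31 for Mrc1, 0.37 for Gpr182, 0.27 for Ehd3, 0.24 for Maf and 0.39 for F8. They were −0.59 for Wnt2, −0.61 for Rspo3 and −0.12 for Flt4. Clec4g, Fcgr2b, Oit3 and Gata4, which mark liver sinusoidal endothelium, were under the filter, with means of 0.0373, 0.194, 0.361 and 0.540 FPKM in the controls and 0, 0.420, 0.360 and 0.599 FPKM in E3KO. Without the library labelled E3KO replicate 1 a further marker, F8, the gene of coagulation factor VIII, was called higher (difference 0.65, limma adjusted p = 0.0282).

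Lymphatic markers were present at high levels in these cells. Of 10, 9 were in the fit, 0 were called higher and 3 lower, with a median of −0.32, which was −0.53 without the library labelled E3KO replicate 1. Prox1, the transcription factor of lymphatic identity, measured 117 to 158 FPKM in the controls and 58.1, 79.2 and 64.7 FPKM in E3KO, and fell by 0.99 (SE 0.14, limma adjusted p = 0.0104). Reln, the gene of reelin, fell by 0.96 (SE 0.15, limma adjusted p = 0.0129), from 66.9 ± 11.0 FPKM in the controls (SD, n = 6) to 33.6 ± 1.04 FPKM in E3KO (SD, n = 3). Ccl21a, a lymphatic chemokine with near-identical gene copies and so of uncertain level, fell by 1.65 (SE 0.33, limma adjusted p = 0.0285). These 3 calls held without the library labelled E3KO replicate 1 (adjusted p = 0.0204, 0.0248 and 0.0455). Mmrn1, multimerin 1, was the most abundant lymphatic marker at 373 ± 72.9 FPKM in the controls (SD, n = 6) and 245 ± 19.6 FPKM in E3KO (SD, n = 3; limma adjusted p = 0.0898). For the remaining markers in the fit the differences were −0.29 for Pdpn, −0.12 for Flt4, −0.03 for Nrp2, −0.19 for Sox18 and −0.32 for Itga9. None of these was called, and their E3KO libraries overlapped the controls. In a bulk culture, fewer cells of a type and less RNA per cell cannot be told apart. The part of these markers in the Stab2 values was not tested.

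Cdh5 was 613 to 943 FPKM and Pecam1 643 to 798 FPKM over the 9 libraries. Of the other endothelial markers Vwf, von Willebrand factor, was low, at 0.881 to 2.15 FPKM in the controls and 0.356, 0.356 and 1.63 FPKM in E3KO (limma adjusted p = 0.188). All 13 pan-endothelial markers were in the fit, with 1 called higher, 1 lower and a median of −0.08. Without the library labelled E3KO replicate 1, 1 was called higher and 0 lower, and the median turned to 0.04. Emcn, endomucin, the most abundant of them, was 973 ± 105 FPKM in the controls (SD, n = 6) and 1495 ± 54.7 FPKM in E3KO (SD, n = 3), higher by 0.63 (SE 0.12, limma adjusted p = 0.0228). Cldn5, a tight junction protein, fell by 0.92 (SE 0.18, limma adjusted p = 0.0253).

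The calls of the list genes rested on single libraries to different degrees. Prox1 and Reln lost their calls in 1 of 9 omissions, that of E3KO replicate 3 (limma adjusted p = 0.0554 and 0.0639). Hmmr lost its call without EfCtrl replicate 1 or 3 and without E3KO replicate 2 or 3 (0.0563, 0.0562, 0.0565 and 0.0661), and so did Bmp2 (0.0562, 0.0617, 0.0633 and 0.0837) and Emcn (0.0663, 0.0643, 0.0541 and 0.0809). Cldn5 lost its call without EfCtrl replicate 1 or 3, the library labelled E3KO replicate 1, or E3KO replicate 3 (0.0629, 0.0583, 0.0565 and 0.0837). Ccl21a kept its call in 3 of 9 omissions and lost it without ECtrl replicate 3, any EfCtrl library, or E3KO replicate 2 or 3 (0.0501 to 0.0960). Itih5 kept its call in 2 of 9 and lost it without ECtrl replicate 3, any EfCtrl library or any E3KO library (0.0520 to 0.0960). The direction of these 8 genes was the same in all 9 omissions and with centring. Prox1 (limma adjusted p = 0.0223 against ECtrl and 0.0330 against EfCtrl) and Reln (0.0330 and 0.0363) passed against each control alone. Hmmr (0.0462 and 0.0521) and Bmp2 (0.0243 and 0.131) passed against ECtrl only. Ccl21a (0.0528 and 0.0878), Itih5 (0.103 and 0.0554), Emcn (0.0536 and 0.0626) and Cldn5 (0.0570 and 0.0643) passed against neither.

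Macrophage and leukocyte markers were examined because some macrophages also express Stab1 and Lyve1. Of 16 markers, 8 were in the fit, 0 were called and the median was 0.37, which was 0.54 without the library labelled E3KO replicate 1. Their summed level was 83.0 to 162 FPKM in ECtrl, 171 to 280 FPKM in EfCtrl and 216 to 338 FPKM in E3KO, so that E3KO overlapped EfCtrl, and the sum was not tested. Lyz2, lysozyme, the most abundant, was 28.0 to 191 FPKM in the controls and 133 to 221 FPKM in E3KO (limma adjusted p = 0.179). Cd68, a lysosomal protein of macrophages, was not called with all libraries and passed, higher, without the library labelled E3KO replicate 1 (difference 1.24, limma adjusted p = 0.0171). Over the 9 libraries Cd68 ranged from 12.8 to 50.6 FPKM, Cd14 from 18.9 to 35.5, Tyrobp from 2.19 to 19.1 and Mrc1 from 3.14 to 10.8. Other markers were lower. Adgre1, Ptprc, Cx3cr1 and Csf1r did not exceed 1.42, 1.59, 0.0910 and 2.26 FPKM in any library, and 0 of the 16 were at 0 in all libraries. Itgam, the gene of CD11b, was also low and under the filter, at 0.156 to 1.30 FPKM in the controls and 1.98, 1.66 and 1.96 FPKM in E3KO, above all controls. Their part in the Stab2 and Hyal1 values was not tested.

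Fibroblast and mural markers summed to 13.5 to 82.7 FPKM in the controls and 12.5 to 26.6 FPKM in E3KO. Of 14, 5 were in the fit and 0 were called, with a median of −0.85 (−0.57 without the library labelled E3KO replicate 1), and Acta2, smooth muscle actin, the most abundant, was 4.31 to 35.1 FPKM in the controls and 4.49 to 6.32 FPKM in E3KO (limma adjusted p = 0.109). Acta2 passed, lower, without ECtrl replicate 1 (adjusted p = 0.0366 by limma). Col1a1, a collagen chain, was under the filter, at 0.591 to 6.67 FPKM in the controls and 0.0131, 0.501 and 0.583 FPKM in E3KO, below all controls. Epithelial markers summed to 3.94 to 7.08 FPKM in the controls and 5.11 to 51.7 FPKM in E3KO, the highest in the library labelled E3KO replicate 1, where Scgb1a1, a club cell secretory protein, was 46.2 FPKM. Of 10 epithelial markers 1, Krt18, was in the fit and was not called (limma adjusted p = 0.982). The part of these markers in the values of the 7 genes was not tested. Between EfCtrl and ECtrl 0 genes of any of the 10 lists were called.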

How the data were processed

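Poly(A) RNA of 9 MLEC libraries was sequenced on an Illumina HiSeq. The authors aligned reads to mm10 with TopHat and Bowtie and deposited FPKM from Cufflinks (1.0.3 in the submitters' processing notes) for each library and group, with Cuffdiff fold changes, p-values and q-values, which were not used. Whether the libraries were stranded is not given in the sources used here. Each of 3 deposited tables lists 37104 loci. The library columns repeated between the tables were identical. Left out were 2 rows without library values and 3749 rows of symbols at several loci, leaving 33353.

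Linear models of log2(FPKM + 1) with the 3 groups as terms were made with limma 3.58.1 under R 4.3.3, with default moderation. The genes fitted were those with a median of at least 1 FPKM over the libraries. Benjamini-Hochberg adjustment covered all 10983, and genes were called at an adjusted p under 0.05. E3KO was compared with the average of both controls and with each control, and these contrasts share their libraries. Each library was a separate preparation by the study's methods, so the p-values measure the spread between preparations. Fragment counts per gene are unknown, and steps among low values gave only a rough relative depth of 1.00 to 1.68 times ECtrl replicate 2, so no counting intervals were derived.

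Whether replicate numbers pair the libraries could not be settled from the values. Deviations from the group means correlated between −0.13 and 0.17 over 9 same-numbered pairs, with 2 over 0.1. Over 18 pairs with different numbers they correlated between −0.31 and 0.15, also with 2 over 0.1. Coordinates are on mm10. Those of Stab1, Stab2 and Has2 are given for the gene and for the deposited row, and those of the other members are for the row. Gene bounds, strands, gene identifiers and overlaps are from GENCODE M21 of the same build. Promoter windows are from RefSeq.

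The genes named are the 7 members, the called genes of each list up to 4 with the largest difference, the most abundant gene of each list, the 5 genes most like Stab2 and Lyve1, Mapk8, Mapk9 and Mapk10, and genes over a member's locus. Some genes under this rule are not reported here. Others are single markers that define a cell type, chosen with values known, or genes whose call changes without a library. The members and the 10 lists were chosen with earlier results of these data known. Alternatives covered the pseudocount, the filter, centring, the trend, a replicate block and the omission of each library.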

Additional observations from a re-analysis of the deposited data

How the results depend on the processing

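Counts of genes called for E3KO against the mean of the controls, ECtrl and EfCtrl were 585, 290 and 145, and without a filter on low values 351, 95 and 17. A pseudocount of 0.1 gave 84 against EfCtrl. Leaving out each library in turn gave 50 to 464, 4 to 334 and 1 to 233, lowest for the first without E3KO replicate 3, and 0 to 1 for EfCtrl against ECtrl. The Stab2 difference was 3.82 to 4.12 and that of Stab1 −0.56 to −0.25 under these omissions. The Hyal1 row kept its direction (0.45 to 0.54 over the omissions, 0.51 with a mean-variance trend, limma adjusted p = 0.0593) and lost its call as given above. Signs turned only among uncalled values. Lyve1 was 0.0104 with centring. Over the omissions Cd44 was −0.16 to 0.21, and between EfCtrl and ECtrl Stab1 was −0.19 to 0.19, Stab2 −0.48 to 0.11, Cd44 −0.14 to 0.60 and Hyal2 −0.0305 to 0.26. Itih5 was not called with centring (limma adjusted p = 0.0538). The cause was not tested.

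With the replicate number as a block, 275, 144 and 1 genes were called against the mean of the controls, ECtrl and EfCtrl, and 0 between the controls. The Hyal1 row kept 0.51 under the block (limma adjusted p = 0.0590) and was no longer called. Itih5 (0.0508) and Cldn5 (0.0515) also lost their calls under the block, and Acta2 (0.0432) and Col1a2 (0.0210) passed, lower. The weak correlations do not settle whether the numbers pair the libraries, so no conclusion is drawn from calls lost or gained here. Has2 was under the filter and has a fitted value only without it (−0.27).

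Depth limits the low genes, Has2 most, since fragment counts are unknown.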
